A study of Mus musculus with 10 samples.

Results

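Interferon-inducible genes and guanylate-binding proteins were followed in the liver of mice lacking Nr1d1, the gene of the nuclear receptor Rev-erb alpha. Members were all probe sets whose annotated symbols belong to the gene families Gbp, Ifi, Ifit, Ifitm, Irf, Oas, Oasl, Irgm, Igtp, Iigp, Isg, Mx and Apol9, or are Stat2. The rule goes by symbols alone, but was not chosen blind to these data, and the probe set of highest mean stood for each gene or shared set of genes. This gave 70 rows out of 20718, of which 64 had 1 symbol and 6 were shared by several members, and together they name 74 genes.

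Livers came from 5 Nr1d1-/- mice (KO) and 5 wild-type mice (WT), all male, aged 10 to 12 weeks, fed chow and killed at ZT10, which is 10 h after lights on in a cycle of 12 h of light and 12 h of dark. Every array, an Affymetrix Mouse Gene 1.0 ST, carried the RNA of a single animal. Replicates are numbered 1 to 5 within a genotype in order of deposit, as names only. The KO line had at least 7 generations of backcrossing to C57Bl/6, whereas the WT animals were bought from a breeder, so genotype and origin of the mice cannot be told apart. All values below are log2 intensities of probe sets, and differences are KO minus WT on that scale with the standard error (SE) of limma's fit.

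Interferons are secreted proteins that warn cells of infection. Their receptors activate the kinases of the JAK family, which switch on STAT proteins, and these enter the nucleus with interferon regulatory factors and raise a large set of genes. The products include the guanylate-binding proteins (GBPs) and the immunity-related GTPases, which attack the compartments of invading microbes, and the Oas, Ifit, Mx and Ifitm proteins, which hinder viruses. In the unchallenged liver many of these genes have a basal level in hepatocytes, Kupffer cells and endothelium. In bulk liver RNA, fewer cells of a type and less RNA per cell cannot be told apart.

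Promoter sequence of 5 members is shown first. The ISRE core is read here as GAAA, any 2 bases and GAAA, and is bound by interferon-activated complexes. The GAS motif is TTCNNNGAA, bound by STAT dimers. AGGTCA is the half-site of many nuclear receptors, the Rev-erb proteins among them. RefSeq windows (build GRCm38.p6) run from 250 bases before to 50 bases after a gene's start, and letters that match any of these motifs on either strand are in capitals. The windows of Apol9a and Apol9b are shown because their shared probe set fell, that of Irf2bp2 because it rose, and those of Gbp7 and Ifit1 as interferon-inducible members that did not pass the test. Where the table has more than 1 window for a gene, the first is shown.
Apol9a, chr15:77411031-77411330, minus strand: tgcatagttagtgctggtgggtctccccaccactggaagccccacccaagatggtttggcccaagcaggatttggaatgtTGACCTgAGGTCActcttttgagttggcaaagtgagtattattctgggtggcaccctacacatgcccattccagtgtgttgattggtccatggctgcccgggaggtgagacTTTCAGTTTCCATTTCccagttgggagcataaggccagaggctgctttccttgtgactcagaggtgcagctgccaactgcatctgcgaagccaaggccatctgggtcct
Apol9b, chr15:77728822-77729121, plus strand: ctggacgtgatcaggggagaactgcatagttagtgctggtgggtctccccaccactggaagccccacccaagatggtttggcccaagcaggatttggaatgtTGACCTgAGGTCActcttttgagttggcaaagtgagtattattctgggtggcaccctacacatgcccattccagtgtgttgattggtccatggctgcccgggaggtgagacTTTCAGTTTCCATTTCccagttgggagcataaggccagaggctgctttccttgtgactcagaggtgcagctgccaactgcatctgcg
Irf2bp2, chr8:126593937-126594236, minus strand: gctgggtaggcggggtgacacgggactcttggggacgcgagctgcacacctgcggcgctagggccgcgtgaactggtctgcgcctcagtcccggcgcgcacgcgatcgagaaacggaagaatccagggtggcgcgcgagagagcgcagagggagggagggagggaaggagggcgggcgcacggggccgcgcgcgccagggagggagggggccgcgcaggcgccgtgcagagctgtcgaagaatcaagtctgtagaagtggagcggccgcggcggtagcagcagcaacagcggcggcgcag
Gbp7, chr3:142530086-142530385, plus strand: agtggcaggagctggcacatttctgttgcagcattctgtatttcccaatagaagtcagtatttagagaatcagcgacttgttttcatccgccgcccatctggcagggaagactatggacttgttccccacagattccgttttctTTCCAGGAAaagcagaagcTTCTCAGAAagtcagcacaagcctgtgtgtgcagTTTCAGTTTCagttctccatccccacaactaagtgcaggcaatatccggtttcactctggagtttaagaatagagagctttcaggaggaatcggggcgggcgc
Ifit1, chr19:34640639-34640938, plus strand: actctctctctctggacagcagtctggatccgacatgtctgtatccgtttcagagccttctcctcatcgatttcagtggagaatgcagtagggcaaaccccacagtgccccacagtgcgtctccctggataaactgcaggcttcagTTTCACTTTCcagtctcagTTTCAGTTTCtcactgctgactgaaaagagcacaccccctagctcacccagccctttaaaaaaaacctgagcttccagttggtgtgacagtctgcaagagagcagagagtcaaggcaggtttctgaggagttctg

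The Apol9a and Apol9b windows share an identical run of 278 bases. Both hold 2 overlapping ISRE cores, at bases 192 to 201 and 198 to 207 of the Apol9a window, and 2 half-sites in opposite orientation with 1 base between them, at bases 81 to 86 and 88 to 93. The Irf2bp2 window has no match to any of the 3 motifs, which says only that these letters are not in it. Gbp7 has 1 ISRE core and 2 GAS motifs, and Ifit1 has 2 ISRE cores. Windows were found for 57 of the 74 member genes, and 32 of their 70 windows (45.7%) held an ISRE core, against 3.44% of all 32851 windows in the table. A GAS motif was in 21.4% of member windows and 8.30% of all windows, and a half-site in 15.7% of member windows and 16.3% of all. The table has no window for any GBP gene of chromosome 5.

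Most interferon-inducible genes did not pass the test. Of the 70 rows, 1 rose and 3 fell in KO livers (limma, Benjamini-Hochberg adjusted p under 0.05 over all 20718 rows), which is 1.43% and 4.29%. Over all rows tested, 3.09% rose and 2.42% fell, 5.51% in all against 5.71% of members, so the members were called about as often as the background. The called members were Gbp11, Gbp8 and the shared Apol9a/Apol9b set, which fell, and Irf2bp2, which rose. At an unadjusted p under 0.05, 11 members were lower and 1 was higher, against 8.43% and 8.88% of all rows. The median difference was -0.05 over the members and 0.01 over all rows. Of the 70 members 58 lay within 0.2 of zero, against 18414 of all 20718 rows. A negative difference was found in 47 members (67.1%), against 46.1% of all rows.

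**Figure D1:**
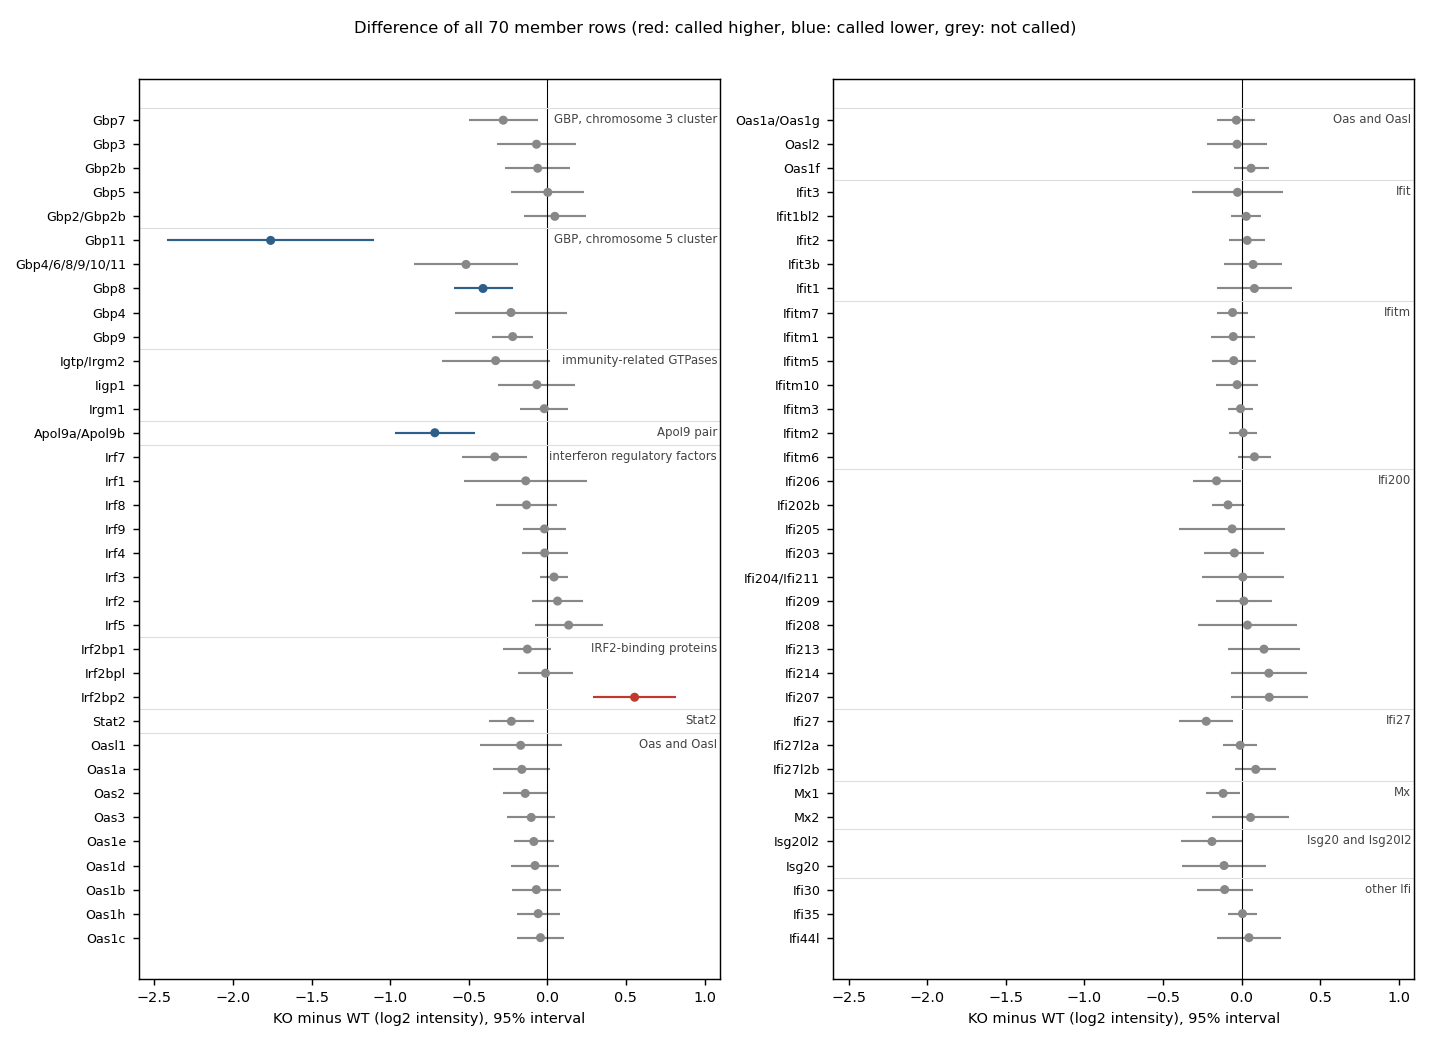
Difference between KO and WT livers (x axis, KO minus WT, log2 intensity) for each of the 70 member rows, grouped by family, with the 95% interval of the limma fit. Gbp11 stands farthest from zero at -1.76, Apol9a/Apol9b and Gbp8 are the other called decreases, and Irf2bp2 is the called increase.

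GBPs are large GTPases that gather on bacteria and on the vacuoles of parasites. In mice their genes lie in 2 clusters, on chromosomes 3 and 5 (RefSeq, GRCm38.p6). Of 5 rows of the chromosome 5 cluster, 2 fell and all had a negative difference, with a median of -0.41. Over all rows tested, 2.42% fell and 46.1% had a negative difference. Of 5 rows of the chromosome 3 cluster, none passed in limma, the smallest adjusted p being 0.153, and their median was -0.06. At an unadjusted p under 0.05, 4 rows of the chromosome 5 cluster and 1 of the chromosome 3 cluster were lower, against 8.43% of all rows. The difference between the clusters was not tested. The chromosome 5 genes are close paralogs, and 1 probe set is annotated to 6 of them, so their single values may share signal.

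Gbp11, listed in RefSeq as a transcribed pseudogene, had the largest difference of any member. It read 7.10, 7.12, 7.18, 6.75 and 7.08 in KO livers (replicates 1 to 5), against 7.52, 9.44, 9.24, 9.34 and 8.49 in WT livers. Every KO array lay below every WT array, but WT replicate 1 stood only a little above the KO arrays and far below the other WT arrays. Means were 7.05 ± 0.17 in KO and 8.81 ± 0.81 in WT (SD, n = 5 each), so WT livers were 3.39-fold higher. The difference was -1.76 with SE 0.30 (limma adjusted p = 0.00445). Leaving out any 1 array kept the call, with differences from -2.08 to -1.60.

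Gbp8 had a smaller decrease. It read 7.39, 7.40, 7.26, 7.25 and 7.48 in KO livers and 7.56, 7.68, 7.85, 8.06 and 7.68 in WT livers. No KO array reached the lowest WT array, again replicate 1. The difference was -0.41 with SE 0.086 (limma adjusted p = 0.0155, 0.00963 to 0.0453 when any 1 array was left out).

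The remaining rows of the chromosome 5 cluster did not pass. The probe set annotated to Gbp4, Gbp6, Gbp8, Gbp9, Gbp10 and Gbp11 read 8.88, 9.03, 8.94, 8.75 and 8.95 in KO livers and 8.91, 9.42, 9.51, 10.00 and 9.28 in WT livers. WT replicate 1 lay among the KO arrays, and WT replicate 4 was highest. The difference was -0.52 with SE 0.15 (limma adjusted p = 0.0732), and without WT replicate 1 it was -0.65 (adjusted p = 0.0120). Gbp9 read 7.30, 7.22, 7.24, 7.08 and 7.12 in KO livers and 7.45, 7.37, 7.28, 7.54 and 7.43 in WT livers, where WT replicate 3 fell just inside the KO range. Its difference was -0.22 with SE 0.06 (limma adjusted p = 0.0536). Gbp4 read 7.61, 7.54, 7.46, 7.60 and 7.89 in KO livers and 7.74, 7.71, 7.64, 8.58 and 7.59 in WT livers, so WT replicate 4 alone stood above every other array. Its difference of -0.23 (SE 0.16, limma adjusted p = 0.566) was -0.05 without that array.

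In the chromosome 3 cluster Gbp7 had the largest difference. It read 8.76, 9.13, 9.02, 8.90 and 9.17 in KO livers and 9.40, 9.03, 9.21, 9.54 and 9.20 in WT livers, with overlapping groups. The difference was -0.28 with SE 0.10 (limma adjusted p = 0.153). The other rows, Gbp3, Gbp2b, Gbp5 and the shared Gbp2/Gbp2b set, had differences from -0.07 to 0.05. Gbp5 averaged 5.57 in KO and 5.56 in WT livers, among the dim rows, whose mean is under 6.00, the lowest of the arrays' lower quartiles, so a level above background is not shown for it.

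The immunity-related GTPases, partners of the GBPs in defence against intracellular parasites, did not pass. The probe set shared by Igtp and Irgm2 read 9.06, 9.14, 9.06, 8.95 and 9.43 in KO livers and 9.19, 9.19, 9.64, 10.05 and 9.23 in WT livers. The groups overlapped, and WT replicates 3 and 4 were the highest arrays. The difference was -0.33 with SE 0.16 (limma adjusted p = 0.315). Irgm1 differed by -0.02 (95% interval -0.17 to 0.13) and Iigp1 by -0.07 (-0.31 to 0.18).

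**Figure D2:**
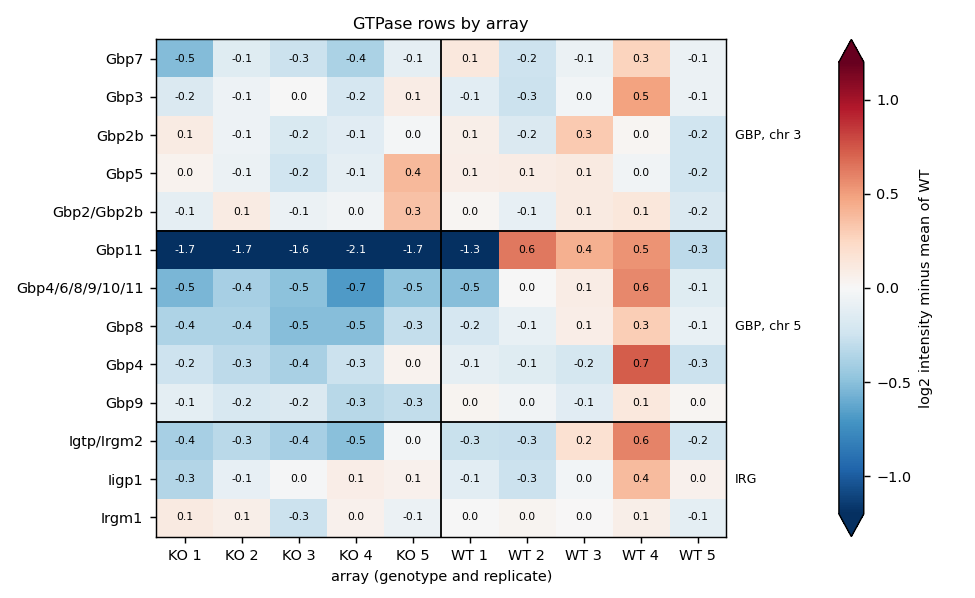
Log2 intensity of 10 GBP and 3 immunity-related GTPase (IRG) rows by array, as the difference from the mean of the 5 WT arrays (colour and printed value, the colour scale ends at 1.2 in either direction). Gbp11 is low in all KO arrays and in WT replicate 1, and WT replicate 4 is the highest array in 8 of the 13 rows.

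The Apol9 pair fell by 0.72. Apol9a and Apol9b are interferon-inducible members of the apolipoprotein L family and share their probe sets, so they were read as 1. They gave 10.22, 10.31, 10.10, 9.85 and 10.13 in KO livers and 10.52, 10.69, 10.79, 11.12 and 11.06 in WT livers, and every KO array lay below every WT array. Means were 10.12 ± 0.18 in KO and 10.84 ± 0.25 in WT (SD, n = 5 each), with an SE of 0.12 and a limma adjusted p of 0.00337. A second probe set of the pair, of lower mean, differed by -0.64 (SE 0.10, limma adjusted p = 0.00375 when all probe sets were fitted), with its highest KO array at 9.74 and its lowest WT array at 10.00. The call was kept without any 1 array (adjusted p up to 0.0105).

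Of the regulators, Irf2bp2 rose. It encodes a corepressor that binds the factor Irf2, so it is a partner of the interferon regulatory factors and not itself a classical interferon-induced gene. It read 9.63, 9.76, 9.53, 9.67 and 10.30 in KO livers and 9.19, 9.12, 9.38, 9.16 and 9.27 in WT livers. Every KO array lay above every WT array, and KO replicate 5 was well above the other KO arrays. The difference was 0.55 with SE 0.12 (limma adjusted p = 0.0189), a 1.47-fold increase. Without KO replicate 5 it was 0.42 (adjusted p = 0.00361), and the call was kept without any 1 array (adjusted p up to 0.0483). Its relatives Irf2bp1 and Irf2bpl differed by -0.13 (95% interval -0.28 to 0.03) and -0.01 (-0.19 to 0.16), and Irf2 by 0.06 (-0.10 to 0.23).

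None of the 8 interferon regulatory factors passed in limma, and 1 of them was lower at an unadjusted p under 0.05. This was Irf7, which amplifies the interferon response. It read 8.82, 8.75, 8.83, 8.69 and 8.92 in KO livers and 9.02, 8.81, 9.32, 9.35 and 9.18 in WT livers, so that only WT replicate 2 fell inside the KO range. The difference was -0.34 with SE 0.094 (limma adjusted p = 0.0625), and without that array it was -0.42 (adjusted p = 0.00898). Irf1, an activator of GBP genes, read 8.72, 8.28, 8.80, 8.82 and 9.24 in KO livers and 9.11, 8.82, 8.71, 9.40 and 8.51 in WT livers. The spread within each genotype exceeded its difference of -0.14 (SE 0.18, limma adjusted p = 0.808).

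Irf9 and Stat2 act together in the complex that type I interferons activate. Irf9 read 9.41, 9.37, 9.61, 9.36 and 9.57 in KO livers and 9.40, 9.56, 9.53, 9.50 and 9.42 in WT livers, and its difference of -0.02 had a 95% interval from -0.15 to 0.12 (limma adjusted p = 0.935). Stat2 read 9.68, 9.57, 9.60, 9.57 and 9.81 in KO livers and 9.85, 9.99, 9.92, 9.70 and 9.93 in WT livers. KO replicate 5 and WT replicate 4 brought the groups to overlap. Its difference was -0.23 with SE 0.065 (limma adjusted p = 0.0646), and the adjusted p was 0.0303 without KO replicate 5 and 0.0218 without WT replicate 4. Irf3, which is activated when viral nucleic acid is sensed, differed by 0.04 (95% interval -0.05 to 0.13). Irf8, a factor of myeloid cells, differed by -0.13 (-0.32 to 0.06). Irf5 differed by 0.14, and Irf4, a dim row, by -0.02.

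**Figure D3:**
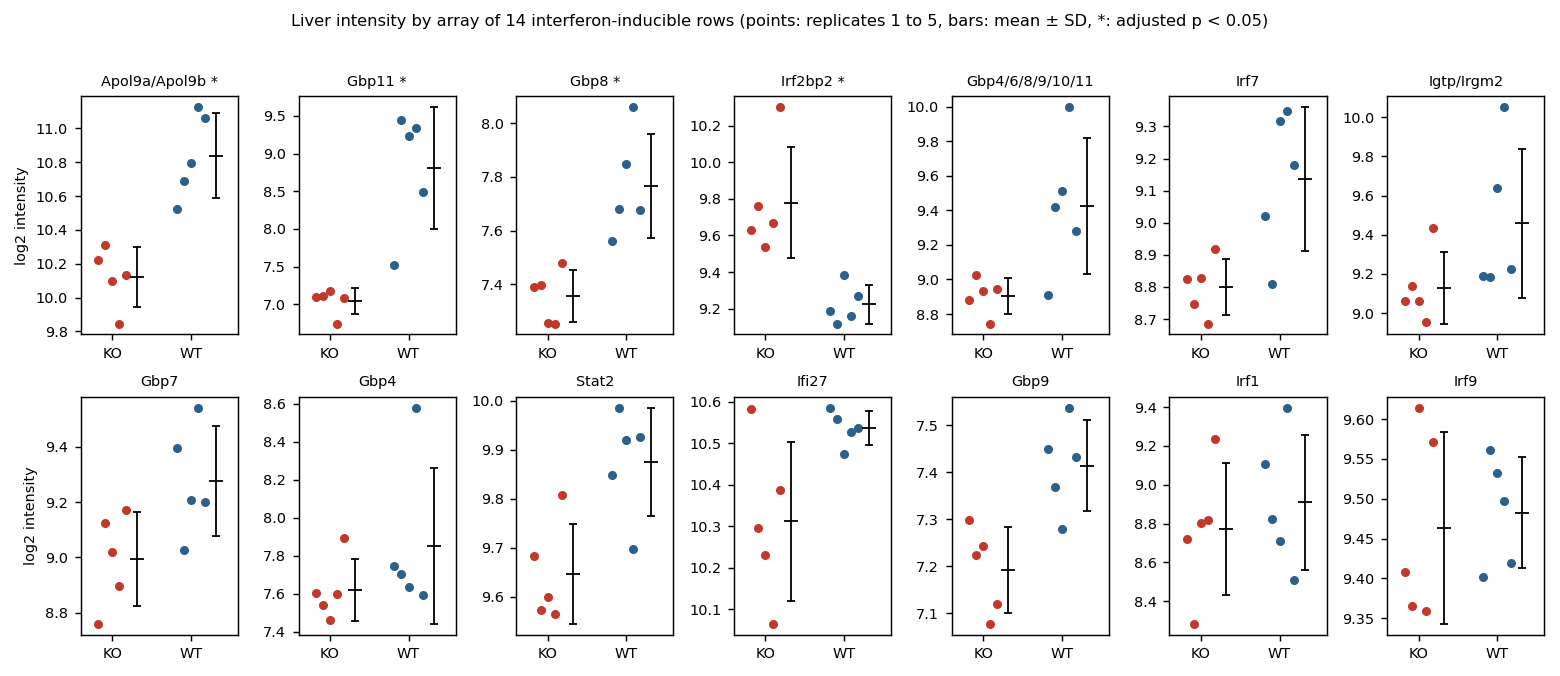
Log2 intensity of 14 member rows in each KO array (left) and WT array (right). Points are replicates 1 to 5 from left to right and the bars give mean ± SD. The 4 rows with a star passed the test, and in each of them the KO and WT points do not overlap.

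The antiviral effectors showed no called change. The Oas family includes enzymes that make the signal for an RNA-cutting enzyme. All 12 Oas and Oasl rows lay between -0.17 and 0.06 (smallest limma adjusted p 0.303, and 0 at an unadjusted p under 0.05). Of them 11 were negative, against 46.1% of all rows, and 4, Oas1c, Oas1d, Oas1e and Oas1h, were dim rows. The 5 Ifit rows, which encode proteins that bind foreign RNA, lay between -0.03 and 0.08, and 2, Ifit1bl2 and Ifit3b, were dim. Ifit1 averaged 8.62 ± 0.12 in KO and 8.54 ± 0.26 in WT livers (SD, n = 5 each), a difference of 0.08 with a 95% interval from -0.16 to 0.32. Ifit3 differed by -0.03 (-0.32 to 0.26).

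The 7 Ifitm rows, membrane proteins that hinder virus entry, lay between -0.06 and 0.08, and 1, Ifitm6, was dim. Among them Ifitm3 averaged 13.26 in both genotypes, with a 95% interval of the difference from -0.09 to 0.08. Mx1 and Mx2, listed in RefSeq as transcribed pseudogenes in the reference strain, differed by -0.12 and 0.06. Mx1 is a dim row.

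Members of the remaining families also stayed short of the test. The 10 Ifi200 rows, of a family that includes DNA sensors, lay between -0.16 and 0.18, and 5 of them were dim. Ifi202b, at 4.04 ± 0.084 in KO and 4.13 ± 0.021 in WT livers, was the only uncalled member whose KO arrays all lay below all WT arrays. It is 1 of those dim rows. Over the members, 4 rows (5.71%) had all KO arrays below all WT arrays and 1 (1.43%) the reverse, against 3.08% and 3.92% of all rows.

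Ifi27 had the largest difference among these. It read 10.58, 10.30, 10.23, 10.06 and 10.39 in KO livers and 10.59, 10.56, 10.47, 10.53 and 10.54 in WT livers, with KO replicate 1 inside the WT range and the other KO arrays below it. The difference was -0.22 with SE 0.08 (limma adjusted p = 0.146), and -0.29 without KO replicate 1 (adjusted p = 0.0255). Isg20, an RNA-degrading enzyme, differed by -0.11 and Isg20l2 by -0.19. Ifi30, a reductase of antigen processing, differed by -0.11, Ifi35 by 0.01 and Ifi44l, a dim row, by 0.05.

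Some livers held more than their share of the extreme values. WT replicate 4 was the highest of the 10 arrays in 15 of the 70 member rows (21.4%), against 6.23% of all rows, and these included 8 of 13 GTPase rows, Irf1, Irf7, Ifit1, Ifit3 and Apol9a/Apol9b. WT replicate 3 was highest in 14 members (20.0%), against 11.8% of all rows. KO replicate 4 was lowest in 18 members (25.7%), against 11.6% of all rows. KO replicate 5 was highest in 12 members (17.1%), against 11.5% of all rows. Without WT replicate 4, 4 members fell and 1 rose. The WT arrays had the larger SD in 42 members (60.0%), against 48.6% of all rows, and in all 5 rows of the chromosome 5 cluster.

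**Figure D4:**
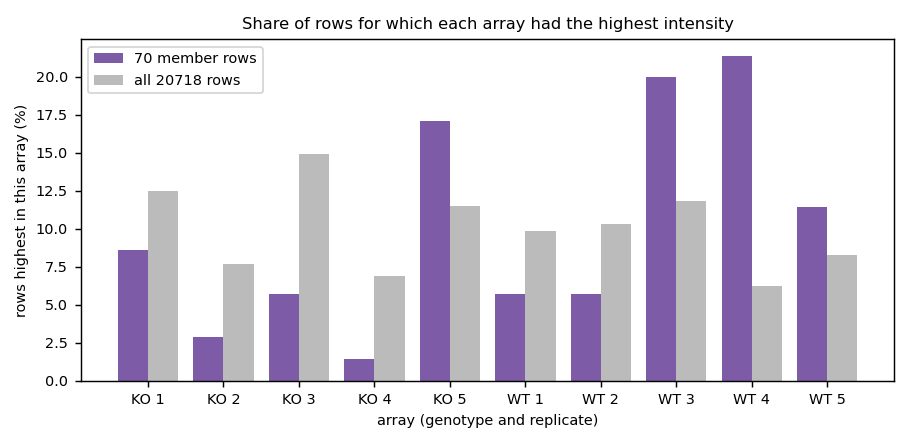
Percent of rows in which each array had the highest intensity of the 10, for the 70 member rows (purple) and for all 20718 rows (grey). WT replicates 4 and 3 hold the largest shares of the members, at 21.4% and 20.0%.

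Genes of the pathway outside the member families were read from lists. No interferon ligand passed in limma among 9 rows (smallest adjusted p 0.345, and 0 at an unadjusted p under 0.05). Of these rows 4 were dim, Ifna4, Ifnb1, Ifne and Ifnk. Among 9 receptor and kinase genes 1 passed. Ifnar2, a chain of the type I interferon receptor, rose by 0.25 (SE 0.064, limma adjusted p = 0.0434), but lost the call in 12 of 19 alternatives (adjusted p up to 0.249). Its partner chain Ifnar1 differed by -0.19 (adjusted p = 0.0969). None of 10 negative regulators passed in limma, and 2 of them were lower at an unadjusted p under 0.05. Ptpn1 differed by -0.18 (adjusted p = 0.0799), Socs3 by -0.38 (adjusted p = 0.0881) and Usp18 by -0.25 (adjusted p = 0.405).

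Of 17 nucleic acid sensing genes, Zbp1 fell and 16 did not pass. Zbp1 encodes a sensor of unusual nucleic acid structures that can trigger cell death. It read 7.85, 8.06, 7.91, 7.83 and 8.01 in KO livers and 8.35, 8.56, 8.26, 8.45 and 8.09 in WT livers, without overlap. The difference was -0.41 (SE 0.083, limma adjusted p = 0.0127). Without the 3 arrays of widest interquartile range (WT replicate 1 and KO replicates 4 and 5) its adjusted p was 0.110.

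Of 37 other interferon-stimulated rows, 2 fell and 1 rose, with a median of -0.01. At an unadjusted p under 0.05, 7 were lower and 6 higher, against 8.43% and 8.88% of all rows. The largest differences, of Samd9l and Tor3a, were 0.41 and 0.40 and did not pass (limma adjusted p = 0.0759 and 0.0742). Samd9l was named after its values were seen. Parp14, an ADP-ribosyltransferase, fell by 0.31 (SE 0.064, limma adjusted p = 0.0135), and every KO array lay below every WT array. Without the same 3 arrays its adjusted p was 0.0705. Bst2, the tetherin that holds budding viruses at the cell surface, fell by 0.18 (adjusted p = 0.0494), a call lost in 15 of 19 alternatives (adjusted p up to 0.175). Lgals9, which encodes a galectin, rose by 0.26 (SE 0.048, adjusted p = 0.00649), with all KO arrays above all WT arrays.

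Genes of MHC class I and antigen processing, which prepare peptides for display to T cells, had 3 of 13 rows lower and none higher, or 23.1% against 2.42% of all rows. Their median difference was -0.21. This list was chosen with earlier results of these data known, so its shares describe it and do not test it. Of its 17 entries, H2-K1, H2-D1, H2-T23 and H2-Q7 had no row of their own, so those class I chains were not read. Psmb8, a subunit of the immunoproteasome, read 8.17, 8.10, 8.12, 8.17 and 8.24 in KO livers and 8.36, 8.63, 8.42, 9.01 and 8.75 in WT livers. The groups did not overlap, and WT replicate 4 was highest. Its difference was -0.47 with SE 0.10 (limma adjusted p = 0.0192, and 0.0501 without WT replicate 5). Psmb10, another such subunit, fell by 0.31 (SE 0.064, adjusted p = 0.0144).

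Tapbpl, which edits the peptides held by class I molecules, read 8.52, 8.40, 8.43, 8.19 and 8.37 in KO livers and 8.92, 8.63, 8.68, 8.81 and 8.88 in WT livers. The groups did not overlap, and the difference was -0.40 with SE 0.073 (limma adjusted p = 0.00620, and 0.0722 without the 3 arrays of widest interquartile range). In 6 of the 13 rows every KO array lay below every WT array, against 3.08% of all rows. The others of these 6 were Tap2, and H2-Q4 and Pdia3, named after their values were seen, with differences of -0.23, -0.26 and -0.22 that did not pass. B2m, the invariant chain of class I molecules, and Nlrc5, the activator of class I genes, were picked after their values were seen and differed by 0.01 and 0.05. WT replicate 4 was the highest array in 7 of the 13 rows.

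**Figure D5:**
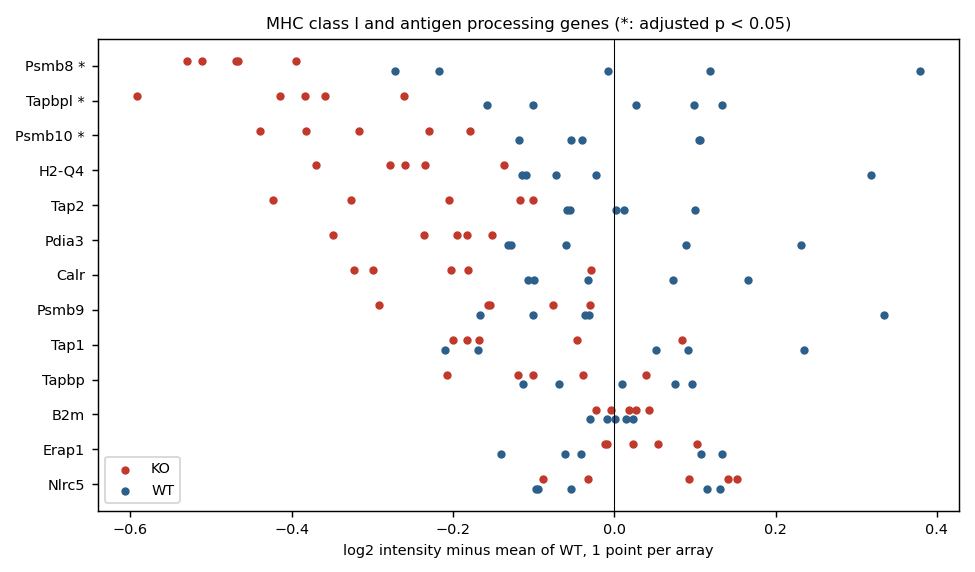
Log2 intensity of 13 MHC class I and antigen processing genes in each array, as the difference from the mean of the 5 WT arrays (x axis), KO in red above WT in blue for each gene. Psmb8, Tapbpl and Psmb10 passed the test, and B2m, Erap1 and Nlrc5 show KO and WT points in the same range.

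Markers of cells that carry many of these genes showed few differences. None of 12 Kupffer cell and macrophage markers passed in limma (0 at an unadjusted p under 0.05), and their summed linear intensity ranged from 6366 to 8660 in KO and from 6818 to 9897 in WT livers, with WT replicate 3 highest in 11 of 12. For 6 MHC class II genes, of which 0 passed, the sums were 2099 to 3186 in KO and 2129 to 3405 in WT livers. For 13 T and NK cell markers, of which 0 passed and 1 was lower at an unadjusted p under 0.05, they were 1007 to 1151 in KO and 1053 to 1152 in WT livers, and 6 of these markers, Cd3d, Cd3g, Gzma, Klrb1c, Klrd1 and Ncr1, were dim rows.

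No gene of the lists for B cells, dendritic cells, monocytes and neutrophils, sinusoidal endothelium and stellate cells passed in limma. At an unadjusted p under 0.05, 1 of 5 B cell and 2 of 8 endothelial markers were higher, against 8.88% of all rows. Lower were 1 of 7 monocyte or neutrophil and 1 of 7 stellate markers, against 8.43% of all rows, and 0 of 7 dendritic cell markers differed. The stellate marker was Lrat, at -0.59 (limma adjusted p = 0.168). Of the endothelial markers 6 had a positive and 2 a negative difference, with a median of 0.16. The 8 hepatocyte markers, of which 0 differed at either threshold, were bright, with means of 12.89 or more. Of 4 cholangiocyte markers, Sox9 rose by 0.62 (SE 0.13, limma adjusted p = 0.0136, and 0.0692 without the 3 arrays of widest interquartile range). The others, Epcam, Krt19 and Krt7, differed by -0.01, -0.02 and -0.11 and did not pass. The summed intensity of that list, Sox9 included, was 710 to 913 in KO and 592 to 691 in WT livers. The part of these cells in the results above was not tested.

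Position on the chromosome was also read, with gene order from RefSeq (GRCm38.p6), and the neighbours that passed are named because they did. Over all rows tested, 5.51% passed. Of the 5 measured genes on each side of the chromosome 5 GBP cluster, 1 of 10 passed, Lrrc8d, which rose by 0.62. Around the chromosome 3 cluster 3 of 10 passed, Kyat3, Gtf2b and Lmo4, which fell by 0.51, 0.45 and 0.64. Around Apol9a and around Apol9b it was 1 of 10, Myh9 each time (-0.30). The 6 other Apol genes there, Apol6, Apol7a, Apol7c, Apol8, Apol10a and Apol10b, lay between -0.08 and 0.05. However, Apol7c, Apol10a and Apol10b were dim rows, with means of 5.58, 5.02 and 4.86, so a level above background is not shown for them. Around Irf2bp2, 2 of 10 passed, Tarbp1 and Tomm20, which fell by 0.27 and 0.33. Members on the chromosome of Nr1d1 itself, number 11, did not pass. The nearest, Ifi35, is separated from Nr1d1 by 111 measured genes.

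The Nr1d1 probe set differed by 0.14 (limma adjusted p = 0.803). No source used here says if it reads the deleted stretch, so it does not check the genotype labels. Over all arrays the median log2 intensity lay between 7.28 and 7.37, and 16 of the 70 members were dim.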

How the data were processed

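Per the labels, RNA of each liver was hybridized singly to an Affymetrix array. The authors deposited normalized intensity values on a linear scale (8.93 to 18280) for 27541 probe sets and 10 arrays, and the tools listed, per the submitters' processing notes, are Partek and RMA with no version. No source used here says if rows were filtered. Since no detection calls are given, signal over background is unknown, and the number of arrays limits the precision.

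Here log2 was taken, and probe sets were named through the platform annotation (21639 with 1 symbol, 1309 with several, 4593 with none). The probe set of highest mean stood for each gene or shared set, giving 20718 rows. The limma package (version 3.58.1) in R 4.3.3 fitted KO minus WT through lmFit and eBayes, two-sided, without covariates. Calls were made under an adjusted p of 0.05 (Benjamini-Hochberg, all rows). The spread is that between single mice.

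Values in every sample are given for each called member, the 12 largest differences, and Stat2, Irf1, Irf7 and Irf9. Listed genes outside the members are named if called, or among the 4 of smallest adjusted p in their list, unless said otherwise. Dim rows of the ligand list and of the T and NK cell list, entries without a row, and Erap1 in a caption are named besides. Members and the 16 gene lists (188 entries, 172 matched rows) were chosen with earlier results of these data known. On simulated arrays with 20718 rows, 87.7% of changes of 0.5 and 37.5% of changes of 0.25 (log2) were recovered, and 6.86% of calls were false. Only 43 to 57 rows were changed at each size there, against 1142 rows called in the data, so these rates need not hold for the data. In all, 19 alternatives were tried: other choices of rows and probe sets, a filter on rows of mean under 6.26 (the lower quartile of row means, which left 15538 rows), centring, repeated quantile normalization, array weights, a trended prior, and arrays left out.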

Additional observations from a re-analysis of the deposited data

Results flagged for a closer look

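In each genotype of 5 arrays, an array was singled out when its gap to the nearest other array exceeded Dixon's critical share of the group's range, a limit that chance passes in about 1 of 20 groups. Of the 14 member rows given by array, which were the rows looked at, this held for 2. In Gbp11, KO replicate 4 read 6.75, below the next KO array at 7.08, a gap of 0.775 of the range. In Gbp4, WT replicate 4 read 8.58, above the next WT array at 7.74, a gap of 0.848 of the range.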

How the results depend on the processing

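Gbp11, Gbp8, Apol9a/Apol9b and Irf2bp2 kept direction and call in every alternative that held them, which for the shared Apol9 set leaves out the fit of single symbols. Their adjusted p values reached 0.0182, 0.0453, 0.0143 and 0.0483. Members lower in KO numbered 3, and 5 after repeated quantile normalization and 6 with array weights, where Gbp9, Stat2 and in the second case Irf7 joined. Leaving out 1 array gave 3 to 5 lower members (5 without KO replicate 1) and 1 to 2 higher ones (2 without KO replicate 3, with Irf5). Over all rows 1142 were called, and this count also rose, to 1284 after repeated quantile normalization and 1217 with array weights. It was 816 to 1243 without 1 array, and 536 without the 3 arrays of widest interquartile range, a fit with fewer samples. The Irf9 difference of -0.0189 changed sign in 3 of 19 alternatives. It lay between -0.0566 and 0.0073 when 1 array was left out, and the cause was not tested. No paired analysis was possible because the labels give no replicate numbers, and those used here are names only. On the simulated arrays, changes of 0.25 were often missed at this sample size.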

Other observations

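Rows annotated to a member and to a gene outside the families were left out of the counts above. The row of Isg15, a ubiquitin-like protein induced by interferon, is shared with Gm9706. It read 7.35, 7.16, 7.11, 7.05 and 6.86 in KO livers and 7.06, 7.20, 7.15, 7.20 and 7.19 in WT livers, a difference of -0.05 (95% interval -0.22 to 0.11, limma adjusted p = 0.823). The row of Ifi47, an immunity-related GTPase, is shared with Olfr56, and its difference was -0.0029 (95% interval -0.22 to 0.21). KO replicate 2 and WT replicate 4, at 8.18 and 8.17, lay above all other arrays of that row. Of 28 member rows with an ISRE core in a promoter window, 1 was called, Apol9a/Apol9b, and their median difference was -0.02. Of 27 rows with a window but no such core, 1 was called, Irf2bp2, with a median of -0.03. Over all rows tested, 5.51% were called, and a link between the motif and the calls was not tested. The other 15 rows, Gbp11 and Gbp8 among them, had no window in the table.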
